A study of Mus musculus with 8 samples.

Results

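The expression of 10 genes of liver sinusoidal endothelial cells (LSECs) was followed across 8 liver RNA-Seq libraries. The genes were Stab1, Stab2, Lyve1, Clec4g, Fcgr2b, Oit3, Kdr, Pecam1, Gpr182 and Ehd3. They were chosen by symbol as known genes of this cell type, and all 10 were found among the 17810 genes listed and among the 12395 genes tested. The libraries came from whole, PBS-perfused livers of 4 WT and 4 HKO male mice, littermates aged 5 months. All were put at 8 weeks on CD-HFD, a diet rich in fat and free of added choline, and stayed on it for 3 months. Each liver gave 1 library. Both miR-33 alleles of HKO mice were flanked by loxP sites (miR-33 loxP/loxP), and these mice also carry Cre recombinase driven by the albumin promoter (AlbCRE), which is active in hepatocytes, so the deletion was aimed at hepatocytes and not at the endothelial cells whose genes are described here. Whether WT mice carried the floxed alleles is not stated in the sources used here.

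LSECs line the smallest vessels of the liver. They differ from most endothelial cells in having open pores (fenestrae) and almost no basement membrane, and they remove modified proteins, hyaluronan and small immune complexes from blood through a set of endocytic receptors. In liver disease they can lose these features, a change known as capillarization, in which the cells take on traits of ordinary capillaries with a basement membrane. Because whole liver was sequenced, fewer LSECs and less RNA per LSEC cannot be told apart in any value below.

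The deleted miRNA is shown first, since its seed (bases 2 to 8, in capitals) is the stretch that pairs with target mRNAs. The mature sequence from RefSeq lies on GRCm38.p6 at chr15:82198127-82198147, plus strand.
mmu-miR-33-5p: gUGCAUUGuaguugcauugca
The longest 3′UTR annotated for each member was searched, and 1 of the 10 held a match to this seed, counting CAATGCA or AATGCAA as a match. CAATGCA pairs with the whole seed. AATGCAA leaves out the pair with base 8 and ends in an A opposite base 1, a g with which it does not pair. It was in Fcgr2b, which codes for the inhibitory Fc receptor for IgG, and covered 8 letters, from position 2348 to position 2355 of a 3′UTR of 2397 bases counted from the first base after the stop codon. These letters are in capitals, and the last of them is the A that does not pair.
Fcgr2b 3′UTR: gagaccagaaCAATGCAAtagattgtta
A match of this kind was found in 16.2% of the 11536 tested genes whose longest 3′UTR has 50 bases or more, and a match is a description of letters, not a shown site of action. The members' promoters are shown as a description of letters too, and whether they bear on how these genes varied between livers was not tested. RefSeq promoters, 250 bases before to 50 bases after the annotated start on GRCm38.p6, were found for 6 members, and 4 are printed, for the paralogues Stab1 and Stab2 and for the other members with a match. Capitals mark CAGGAAG or CCGGAAG, words bound by ETS factors, and the core promoter word TATAAA. Both strands were searched.
Stab1, chr14:31168592-31168891, minus strand: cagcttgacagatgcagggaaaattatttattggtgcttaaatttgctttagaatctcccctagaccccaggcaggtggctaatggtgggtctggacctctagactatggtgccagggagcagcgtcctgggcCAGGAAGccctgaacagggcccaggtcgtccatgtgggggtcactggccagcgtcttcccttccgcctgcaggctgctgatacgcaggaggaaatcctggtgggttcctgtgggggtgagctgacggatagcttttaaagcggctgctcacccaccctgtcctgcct
Stab2, chr10:87007893-87008192, minus strand: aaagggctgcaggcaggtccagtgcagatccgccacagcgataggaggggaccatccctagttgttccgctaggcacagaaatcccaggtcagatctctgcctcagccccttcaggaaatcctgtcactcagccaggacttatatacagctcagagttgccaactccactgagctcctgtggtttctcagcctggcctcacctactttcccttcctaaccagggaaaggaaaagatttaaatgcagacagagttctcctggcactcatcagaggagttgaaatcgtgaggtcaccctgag
Ehd3, chr17:73804591-73804890, plus strand: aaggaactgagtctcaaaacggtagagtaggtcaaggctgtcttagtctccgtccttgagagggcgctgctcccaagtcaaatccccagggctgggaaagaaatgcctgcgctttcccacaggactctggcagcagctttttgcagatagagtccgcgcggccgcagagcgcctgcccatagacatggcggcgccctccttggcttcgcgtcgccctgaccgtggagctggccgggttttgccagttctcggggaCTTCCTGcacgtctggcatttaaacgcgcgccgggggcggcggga
Clec4g, chr8:3720602-3720901, minus strand: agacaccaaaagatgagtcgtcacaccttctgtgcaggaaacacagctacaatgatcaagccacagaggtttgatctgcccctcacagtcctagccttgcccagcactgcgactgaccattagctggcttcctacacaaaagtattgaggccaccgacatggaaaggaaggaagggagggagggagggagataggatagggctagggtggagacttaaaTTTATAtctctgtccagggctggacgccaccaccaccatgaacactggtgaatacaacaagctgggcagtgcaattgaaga
CAGGAAG was found in Stab1, 117 bases upstream of the start, and just downstream of the start in Ehd3 on the strand opposite to the gene, where it reads as its reverse complement, and 13.3% of 32851 promoters of this length held it. The word TATAAA was found 31 bases upstream of the Clec4g start, on the strand opposite to the gene, and 13.6% of all promoters held it. CCGGAAG, held by 8.86% of all promoters, and the GATA words AGATAA and TGATAA, held by 11.2% and 9.05%, were in 0 of the 6 member promoters. The Stab2, Fcgr2b and Kdr promoters held none of these words.

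In livers of HKO mice, 9 of the 10 LSEC genes were on average more abundant than in WT livers and Lyve1 was less abundant, but no difference passed the test against the spread between livers. The members' log2 fold changes ranged from -0.51 (Lyve1) to 0.71 (Ehd3), with a median of 0.50, against a median of 0.01 over all genes tested. The 9 genes varied together between livers (below), so they are not 9 separate observations. Of the lists below, the median was 0.61 for hepatocyte markers, 0.33 for pan-endothelial genes and 0.01 for Kupffer cell and macrophage markers. In the quasi-likelihood test of edgeR, adjusted by the Benjamini-Hochberg method, 0 of 10 members had an adjusted p under 0.05, the smallest adjusted p being 0.312 for Clec4g. In the same test 624 of 12395 genes (5.03%) passed, 206 (1.66%) as higher and 418 (3.37%) as lower in HKO livers, and with scaling to the total count the split was 119 higher and 621 lower. At an unadjusted p under 0.05, 0 of 10 members and 19.8% of all genes were found. DESeq2 also called 0 of 10 members, beside 1014 genes (8.18%), and gave an unadjusted p under 0.05 for Clec4g (0.0149). Limma-voom gave the same count of 0, with an unadjusted p of 0.0415 for Clec4g.

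**Figure D1:**
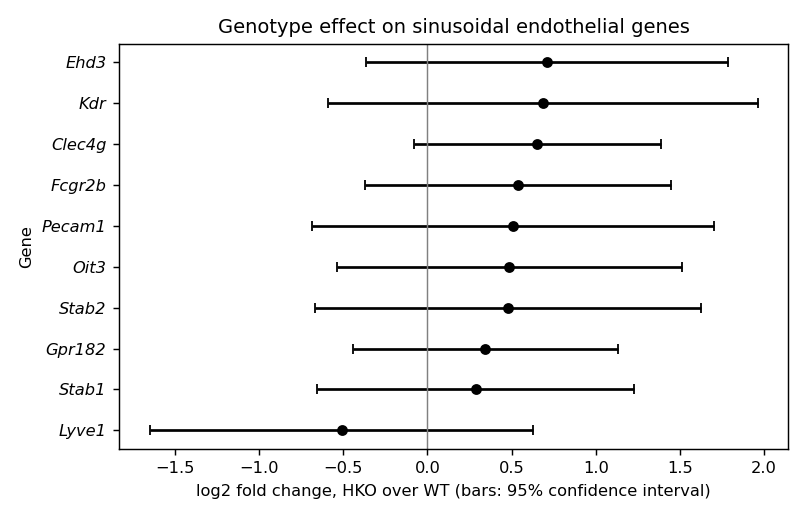
Fitted log2 fold change of each LSEC gene, HKO over WT livers (n = 4 each), on the horizontal axis, with 95% confidence intervals as bars. The intervals of all 10 genes cross 0, and Clec4g comes nearest to excluding it, with an interval from -0.08 to 1.39.

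Levels are given in CPM, the count of a gene relative to the library total after TMM scaling. The members' raw counts ranged from 48 (Gpr182 in HKO replicate 2) to 1542 (Ehd3 in HKO replicate 1), far above the floor of 3 counts, which is 0.149 to 0.255 CPM in these libraries and covers counting error only. The livers of each genotype overlapped for 10 of 10 members, while 12.5% of all genes tested had no overlap. Without WT replicate 3, the livers of 3 members no longer overlapped (Clec4g, Fcgr2b and Kdr, all higher in HKO), beside 19.3% of all genes. The median log2 fold change of the members was 0.95 when WT replicate 3 was left out, and leaving out HKO replicate 1 gave 0.20.

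**Figure D2:**
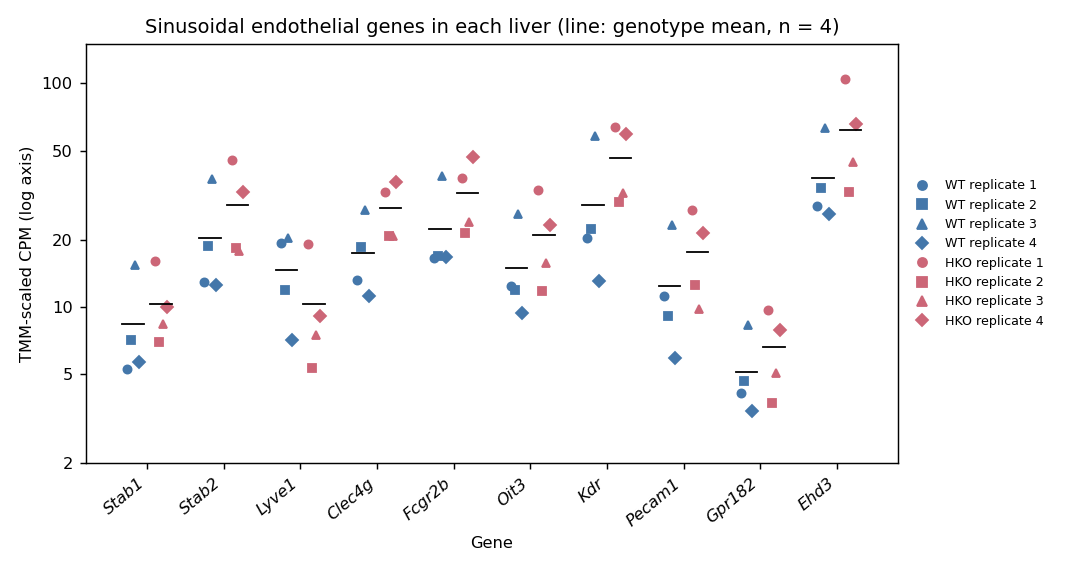
TMM-scaled CPM of the 10 genes in each of the 8 livers on a log axis, WT in blue and HKO in red, with the replicate number shown by the symbol and the genotype mean (n = 4) by a line. WT replicate 3 stands above the other WT livers in every gene, and in 9 genes it lies with HKO replicates 1 and 4 above the other 5 livers, the exception being Lyve1.

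The scavenger receptors of the stabilin family are large receptors that take up modified lipoproteins, hyaluronan and other waste. Stab1 (chr14:31139017-31168642, minus strand, GRCm38 as listed for all genes here) was at 5.29, 7.12, 15.5 and 5.65 CPM in WT replicates 1 to 4 and at 16.0, 6.95, 8.34 and 9.96 CPM in HKO replicates 1 to 4. The highest WT liver was almost level with the highest HKO liver, and the other WT livers were near or below the lowest HKO liver. Its log2 fold change was 0.29 ± 0.41 (SE, n = 4 and 4; adjusted p = 0.769, edgeR), and it was -0.0080 without HKO replicate 1. Stab2 (chr10:86841210-87007943, minus strand) was at 12.9, 18.6, 37.4 and 12.5 CPM in WT livers and at 45.6, 18.3, 17.7 and 32.5 CPM in HKO livers. Again WT replicate 3 and HKO replicates 1 and 4 were high. The log2 fold change was 0.48 ± 0.48 (SE, adjusted p = 0.656, edgeR). Reads of an overlapping gene on the other strand, Nt5dc2 for Stab1 and Gm16271 for Stab2, may be included, since the sources used here do not say that counting used the strand.

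Lyve1 (chr7:110850607-110862954, minus strand) codes for a hyaluronan receptor shared by LSECs and lymphatic endothelium. It was at 19.3, 11.9, 20.2 and 7.10 CPM in WT livers and at 19.1, 5.33, 7.49 and 9.11 CPM in HKO livers. In contrast with the other members, WT replicate 1 was among its 3 highest livers and HKO replicate 4 was not. The WT mean was 14.6 ± 6.25 CPM and the HKO mean 10.3 ± 6.09 CPM (SD, n = 4), and its log2 fold change was -0.51 ± 0.48 (SE, adjusted p = 0.634, edgeR).

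Clec4g and Fcgr2b code for surface receptors that bind sugars and antibody complexes. Clec4g (chr8:3716071-3720652, minus strand), the C-type lectin LSECtin, was at 13.1, 18.6, 27.1 and 11.2 CPM in WT livers and at 32.7, 20.8, 20.8 and 36.2 CPM in HKO livers. All HKO livers were above 3 of the 4 WT livers. The WT mean was 17.5 ± 7.09 CPM and the HKO mean 27.6 ± 7.97 CPM (SD), with a log2 fold change of 0.65 ± 0.32 (SE, adjusted p = 0.312, edgeR), the smallest adjusted p of the 10 members. Fcgr2b (chr1:170960559-170976072, minus strand), through which LSECs clear small immune complexes, was at 16.6, 17.0, 38.6 and 16.8 CPM in WT livers and at 37.9, 21.4, 23.9 and 46.7 CPM in HKO livers. Of the WT livers 3 lay within a narrow range below every HKO liver, and WT replicate 3 lay above 3 of the HKO livers. The log2 fold change was 0.54 ± 0.38 (SE, adjusted p = 0.510, edgeR). Fcgr2b had fractional counts in 5 livers and Stab1 in 3, which can arise where reads were split between genes.

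Ehd3 and Oit3 are less well known members. Ehd3 (chr17:73804841-73832094, plus strand) codes for an EH-domain protein of endocytic membrane recycling. It was at 28.2, 33.9, 62.9 and 25.9 CPM in WT livers and at 104.1, 32.7, 44.3 and 65.7 CPM in HKO livers. HKO replicate 1 was the highest liver, and HKO replicate 2 was below 2 of the WT livers. Its log2 fold change, 0.71 ± 0.45 (SE, adjusted p = 0.455, edgeR), was the largest of the members. Oit3 (chr10:59422960-59441780, minus strand), which codes for a secreted protein with a zona pellucida domain, was at 12.4, 11.9, 26.1 and 9.40 CPM in WT livers and at 33.5, 11.7, 15.8 and 23.2 CPM in HKO livers. HKO replicate 2 was within the range of the 3 lower WT livers. The log2 fold change was 0.49 ± 0.43 (SE, adjusted p = 0.608, edgeR).

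Gpr182 (chr10:127749602-127751799, minus strand) codes for an atypical chemokine receptor of sinusoidal and lymphatic endothelium and had the lowest counts of the members. It was at 4.13, 4.68, 8.31 and 3.42 CPM in WT livers and at 9.65, 3.71, 5.07 and 7.92 CPM in HKO livers. WT replicate 3 and HKO replicates 1 and 4 were again the highest, and HKO replicate 2 was within the range of the lower WT livers. The log2 fold change was 0.34 ± 0.35 (SE, adjusted p = 0.655, edgeR).

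Kdr and Pecam1 mark endothelium in general. Kdr (chr5:75932827-75978456, minus strand) codes for VEGFR2, the main signalling receptor for VEGF-A, and was at 20.4, 22.3, 58.4 and 13.01 CPM in WT livers and at 63.8, 29.5, 32.2 and 59.1 CPM in HKO livers. Every HKO liver was above 3 of the WT livers, and the highest WT liver was 4.49 times the lowest. The log2 fold change was 0.69 ± 0.53 (SE, adjusted p = 0.548, edgeR), with a 95% confidence interval from -0.59 to 1.96. Pecam1 (chr11:106654213-106715282, minus strand), the junction protein CD31, was at 11.2, 9.07, 23.2 and 5.92 CPM in WT livers and at 27.0, 12.5, 9.75 and 21.5 CPM in HKO livers. HKO replicate 3 was within the range of WT replicates 1 and 2. The log2 fold change was 0.51 ± 0.50 (SE, adjusted p = 0.653, edgeR).

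To compare levels between genes, CPM was divided by the exonic length of each gene in kb, taken from GENCODE. The gene models behind the deposited counts can differ from these. For Gpr182 the length used was 3.95 kb, which is longer than the whole span listed with its counts (chr10:127749602-127751799). The GENCODE models of Clec4g, Fcgr2b and Pecam1 also reached beyond their listed spans. The order below therefore holds for these lengths only, and other lengths were not tested. On this per-length scale the order over all 8 livers was Clec4g at 9.17 ± 3.59, Ehd3 at 7.58 ± 4.07, Oit3 at 6.45 ± 3.08, Fcgr2b at 4.72 ± 2.06, Lyve1 at 4.26 ± 2.11, Kdr at 4.14 ± 2.22, Stab2 at 2.79 ± 1.41, Pecam1 at 2.41 ± 1.24, Gpr182 at 1.48 ± 0.61 and Stab1 at 0.91 ± 0.41 CPM per kb (SD, n = 8). The order of the 9 genes other than Lyve1 was the same in both genotypes. The place of Lyve1 in the pooled order held in neither, since it was at 5.01 ± 2.14 CPM per kb in WT livers, between Oit3 (5.36 ± 2.70) and Fcgr2b (3.84 ± 1.88), and at 3.51 ± 2.09 CPM per kb in HKO livers, between Kdr (5.11 ± 1.97) and Stab2 (3.26 ± 1.52) (SD, n = 4). Each neighbouring pair in the pooled order differed by less than 1 SD of the more variable gene. Within single livers the order was steadier. With these lengths, Oit3 was above Fcgr2b, Kdr above Stab2, Pecam1 above Gpr182 and Gpr182 above Stab1 in 8 of 8 livers. Whether Pecam1 stays above Gpr182 with a shorter Gpr182 model was not tested. Lyve1 was above Kdr in 4 of 4 WT livers and 0 of 4 HKO livers, and Fcgr2b was above Lyve1 in 1 WT liver and 3 HKO livers.

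The members varied between livers of 1 genotype more than most genes of similar abundance. The within-genotype SD of log2 CPM ranged from 0.49 (Clec4g) to 0.76 (Kdr), with a median of 0.65. Over the 5885 tested genes with a mean CPM within the members' range, the median was 0.17 and the 95th percentile 0.47, which 10 of 10 members exceeded. A high spread was not particular to the members. Of the lists described below, the median was 0.69 for further sinusoidal genes, 0.74 for Kupffer cell and macrophage markers and 0.51 for pan-endothelial genes. It was 0.36 for stellate cell markers and 0.21 for hepatocyte markers. WT replicate 3 was the highest WT liver for 10 of 10 members, and WT replicate 4 the lowest for 8. Among HKO livers, replicate 1 was the highest for 8 members and replicate 2 the lowest for 8. The summed level of the members was 143.5, 155.04, 317.6 and 110.9 CPM in WT livers and 389.2, 162.9, 185.4 and 311.7 CPM in HKO livers, so that they made up between 0.0111% and 0.0389% of the scaled counts.

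Of the members, 9 kept together from liver to liver and Lyve1 did so less. Over the 8 livers, Pearson's r between pairs of members without Lyve1 ranged from 0.84 to 0.98, with a median of 0.93, and from 0.85 to 0.99 after each genotype's mean had been removed. These correlations describe 8 livers whose libraries are shared by all genes. For the 9 genes, r with the mean of the other members was 0.89 to 0.99, with Spearman's rho of 0.81 to 0.98, and without the 2 livers farthest from the median (WT replicate 3 and HKO replicate 1) r was 0.87 to 0.97 over 6 livers. Lyve1 followed the other members less, with r = 0.45 and rho = 0.38, and r = -0.12 without those 2 livers. With the genotype means removed, r between Lyve1 and each of the other 9 was 0.60 to 0.86, against 0.20 to 0.58 before.

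Among genes outside the 10, those most like the members over the 8 livers were Tek, the receptor for angiopoietins (r = 0.993), Adgrf5, an adhesion G protein-coupled receptor (0.990), Gimap4, an immune GTPase (0.985), Bmp2, a ligand through which LSECs control hepatic iron handling (0.985), and Adgrl4, an adhesion receptor of endothelium (0.984). Their r without the same 2 livers was 0.96 to 0.98. Tek was at 7.69, 7.19, 15.5 and 5.65 CPM in WT livers and at 18.2, 7.95, 8.28 and 14.4 CPM in HKO livers. The 3 livers high for the members were those high for Tek, which follows from its choice by likeness over these livers. The log2 fold changes of these 5 genes ranged from 0.43 to 0.56, with adjusted p of 0.432 to 0.714 (edgeR).

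Transcripts found in endothelium in general were measured in the same libraries. Of 26 pan-endothelial genes, 25 were tested, 1 was called higher and 0 lower in HKO livers, and the median log2 fold change was 0.33. Their summed level was 208.1 to 407.6 CPM in WT livers and 267.6 to 487.9 CPM in HKO livers, and WT replicate 3 and HKO replicates 1 and 4 were again the 3 highest. The gene called was S1pr1, the receptor for sphingosine 1-phosphate. It was at 55.1, 50.8, 59.2 and 73.5 CPM in WT livers and at 78.7, 79.6, 100.7 and 108.7 CPM in HKO livers, without overlap and without the peak in WT replicate 3. Its log2 fold change was 0.62 ± 0.14 (SE, adjusted p = 0.0266, edgeR), and the adjusted p lay between 0.0640 and 0.0931 when any of WT replicates 1, 2 and 3 or HKO replicates 3 and 4 was left out. Ptprb, a phosphatase that restrains the Tek receptor, followed the members (36.1 to 115.8 CPM in WT, 50.1 to 147 CPM in HKO livers, adjusted p = 0.685). Not all genes of the list followed the members, with r = 0.47 for Erg, which was at 6.05 to 8.17 CPM over the 8 livers, 0.47 for Fli1, 0.23 for Ecscr and 0.10 for Sox17, genes named after their values had been seen.

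Relative to the mean log2 CPM of the 25 pan-endothelial genes, 9 members differed less between genotypes than Lyve1 did. The difference of the genotype means on this scale, HKO minus WT, lay between -0.03 (Gpr182) and 0.47 (Kdr) for these, with overlapping livers for all. For Kdr the level relative to the pan-endothelial genes was 2.40 ± 0.46 in WT and 2.87 ± 0.20 in HKO livers (SD, n = 4). Lyve1 had the largest difference. Its relative level was 2.14, 1.52, 1.49 and 1.07 in WT livers and 1.35, 0.18, 0.73 and 0.30 in HKO livers, a difference of -0.92, with HKO replicate 1 inside the WT range. Set against the mean of the other 9 members, a comparison chosen after the values had been seen and given with no test, Lyve1 was at 0.68, -0.20, -0.48 and -0.46 in WT and at -0.81, -1.43, -1.11 and -1.57 in HKO livers, which do not overlap. The share of all genes without overlap on this scale was not determined, and the livers did overlap for Lyve1 in CPM.

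**Figure D3:**
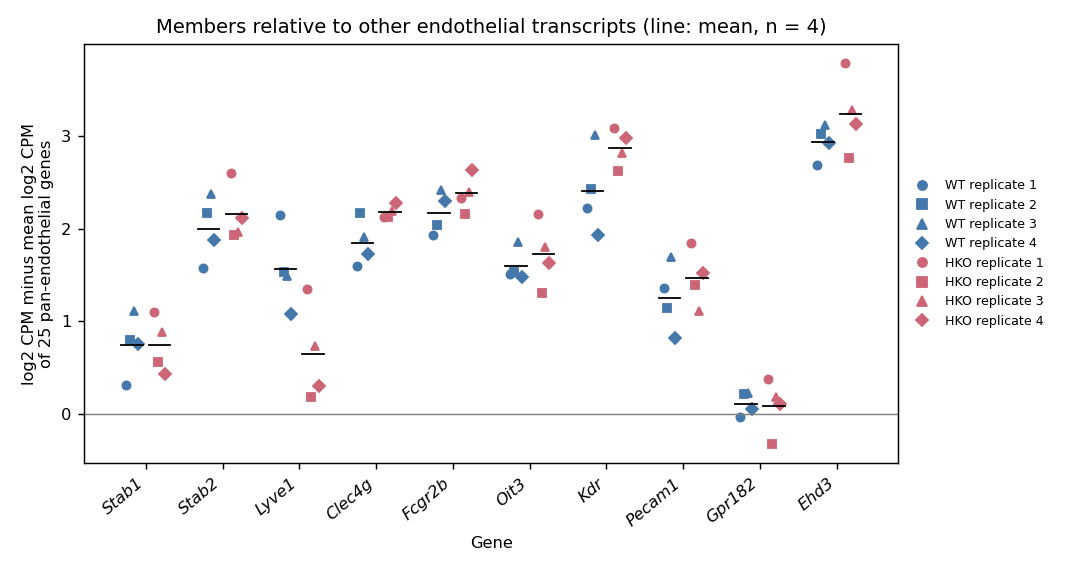
For each LSEC gene and liver, log2 CPM minus the mean log2 CPM of 25 pan-endothelial genes, with lines at the genotype means (n = 4). Lyve1 is the gene with the largest gap, 1.56 ± 0.44 in WT against 0.64 ± 0.53 in HKO livers (SD), and its livers overlap.

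Further genes of sinusoidal identity were compared in the same way. Of 17 listed, 15 were tested, 0 were called in either direction, and 14 had a log2 fold change above 0 (median 0.42). The most abundant were Sdc1, a heparan sulfate proteoglycan that hepatocytes also make (117.2 to 132.8 CPM in WT, 108.2 to 162.1 CPM in HKO livers), and Mrc1, the mannose receptor, which macrophages also make. Mrc1 was at 36.2, 51.5, 86.5 and 26.7 CPM in WT livers and at 113.7, 37.3, 50.1 and 84.1 CPM in HKO livers, which is the liver pattern of the members. Transcription factors of sinusoidal endothelium varied less. Of 11 tested, 0 were called, the median log2 fold change was 0.03 and the median within-genotype SD was 0.33. Nr2f2, a nuclear receptor of venous identity, was at 84.8 to 92.6 CPM in WT and 81.5 to 97.1 CPM in HKO livers.

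Genes of capillarization and of continuous endothelium, such as those of basement membrane and adhesion, were also measured. Of 23 listed, 21 were tested and 0 were called. A log2 fold change below 0 was found for 15, with a median of -0.21, beside 5993 of 12395 over all genes. Which liver cells these transcripts came from was not tested. Col18a1, the collagen from which endostatin is cut and which hepatocytes also make, was at 337.9 to 394.2 CPM in WT and 372.7 to 408.7 CPM in HKO livers (log2 fold change 0.07 ± 0.08 SE). Sparc, a matrix protein, was at 98.0, 63.2, 69.6 and 63.9 CPM in WT and at 67.9, 47.5, 41.0 and 50.7 CPM in HKO livers (log2 fold change -0.51 ± 0.18 SE, adjusted p = 0.160).

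**Figure D4:**
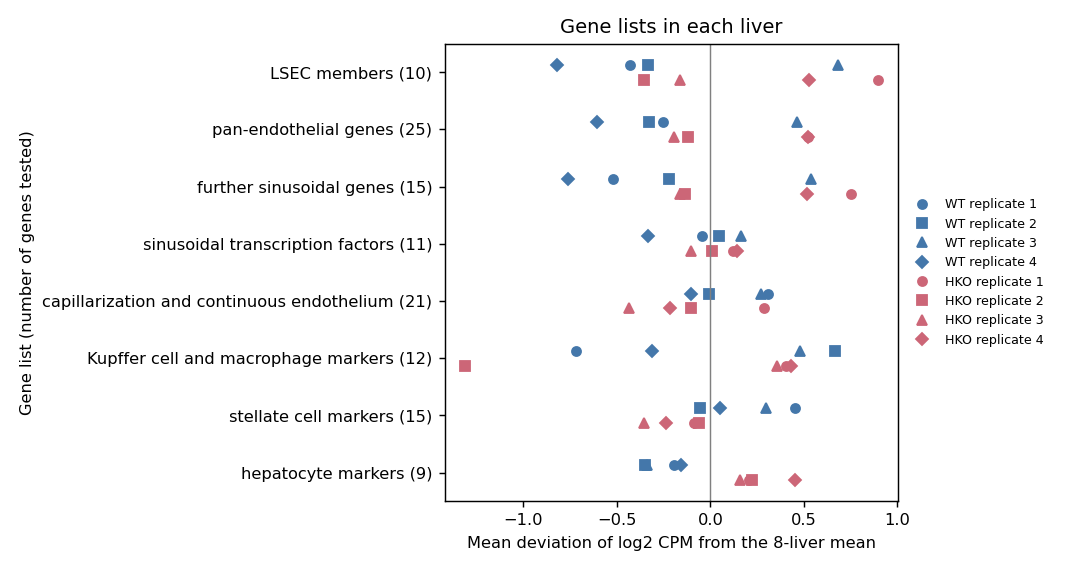
Mean deviation of log2 CPM from the 8-liver mean for 8 gene lists (number of genes tested in brackets), 1 point per liver, WT blue and HKO red. For the LSEC genes WT replicate 3 (0.68), HKO replicate 1 (0.90) and HKO replicate 4 (0.53) lie apart from the other 5 livers, and the same 3 livers lead the pan-endothelial and further sinusoidal genes.

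Among VEGF ligands and receptors, the pathway of Kdr, 8 of 10 genes were tested, 0 were called higher and 1 lower. The gene called was Vegfb, a ligand of VEGFR1 and not of VEGFR2. It was at 8.18, 7.89, 5.37 and 5.06 CPM in WT and at 2.43, 3.78, 3.10 and 4.001 CPM in HKO livers, which do not overlap, with a log2 fold change of -0.99 ± 0.22 (SE, adjusted p = 0.0265, edgeR). Its adjusted p lay between 0.0573 and 0.102 when WT replicate 1 or 2 or HKO replicate 1 or 3 was left out. Vegfa, the main ligand of Kdr, was at 102.7 to 122.7 CPM in WT and 110.8 to 149.3 CPM in HKO livers (log2 fold change 0.16 ± 0.10 SE, adjusted p = 0.434). The co-receptor Nrp1 was at 103.3 to 139.6 CPM in WT livers and reached 356.3 CPM in HKO replicate 3 (log2 fold change 0.67 ± 0.39 SE, adjusted p = 0.419).

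Of the angiocrine factors, signals that sinusoidal cells send to hepatocytes, 11 of 14 listed were tested and 0 were called (median log2 fold change 0.15). Bmp2 was at 13.5, 13.7, 25.6 and 10.3 CPM in WT and at 31.8, 15.7, 18.1 and 26.3 CPM in HKO livers. It was among the genes chosen above as most like the members, so being high in the same 3 livers followed from that choice. Cxcl12, a chemokine, was at 338.7 to 394.4 and 348.9 to 430.5 CPM. Of the genes that handle hyaluronan, the ligand of Lyve1 and Stab2, 5 of 6 listed were tested and 0 were called. The hyaluronidase Hyal1 was at 54.8 to 67.2 CPM in WT and 50.4 to 66.3 CPM in HKO livers, and Hyal2 was at 22.1 to 23.5 and 19.3 to 23.1 CPM. Of 19 genes of endocytosis and lysosomal breakdown, 0 were called, with a median log2 fold change of -0.03. Ctsl, the protease cathepsin L, was at 493.2 to 628.6 CPM in WT and 631.8 to 822.3 CPM in HKO livers, without overlap (log2 fold change 0.42 ± 0.11 SE, adjusted p = 0.0509), and Lrp1, a receptor made mostly outside LSECs, was at 258.4 to 405.0 and 344.3 to 396.0 CPM. Of the paralogues of the members, 10 of 14 were tested and 0 were called. Ehd1, the relative of Ehd3, was at 23.1 to 27.7 CPM in WT and 17.0 to 23.3 CPM in HKO livers, and did not have the peaks of Ehd3.

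Markers of other liver cells were measured in the same libraries. Of 12 Kupffer cell and macrophage markers, 0 were called, and their summed level was 120.9 to 294.1 CPM in WT and 86.5 to 279.6 CPM in HKO livers. WT replicates 1 and 4 and HKO replicate 2 were low in these, and those livers were also among the low ones for the LSEC genes. The defining markers Clec4f (20.3, 56.6, 55.3 and 28.3 CPM in WT livers, then 57.6, 18.99, 52.7 and 54.8 CPM in HKO livers) and Cd5l (28.4, 75.1, 77.7 and 40.7, then 65.0, 20.1, 61.5 and 70.7 CPM) had this pattern, in which WT replicate 2 and HKO replicate 3 were high although the LSEC genes were not. Of 15 stellate cell markers, 2 were called lower and 0 higher. These were the collagens Col1a1 (16.6 ± 7.56 CPM in WT, 2.33 ± 0.92 CPM in HKO livers, SD; log2 fold change -2.81, adjusted p = 0.00723) and Col3a1 (71.3 ± 22.1 and 19.5 ± 5.84 CPM; log2 fold change -1.87, adjusted p = 0.0137), while the summed level of the list was 558.5 to 706.9 and 463.2 to 630.7 CPM.

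Of 9 hepatocyte markers tested, 6 were called higher, where 1.66% of all genes were, and 0 lower. The smallest adjusted p values were those of Cps1, the first enzyme of the urea cycle, with a mean of 2435 ± 639 CPM in WT livers against 5819.8 ± 842.3 CPM in HKO livers (SD; log2 fold change 1.26, adjusted p = 0.00433), and Ahsg, the plasma protein fetuin-A (log2 fold change 0.65, adjusted p = 0.0109, and 0.0541 without WT replicate 2). Serpina1a and Fgb, which code for an antitrypsin and a fibrinogen chain, had log2 fold changes of 0.61 and 0.61 (adjusted p = 0.0244 and 0.0263), and for each the adjusted p was above 0.05 when any of WT replicates 1, 2 and 3 or HKO replicates 3 and 4 was left out. The other 2 called were Ass1 (0.80, adjusted p = 0.0280), a urea cycle enzyme, and Hnf4a (0.36, adjusted p = 0.0406), a hepatocyte transcription factor. Apoa1 (0.49, adjusted p = 0.155), Alb (-0.03, adjusted p = 0.967) and Ttr (-0.08, adjusted p = 0.803) were not called. The summed level of the list, mostly Alb at 47064 to 98815 CPM, overlapped between genotypes (85275 to 118810 and 80064 to 134430 CPM). Of 8 cholangiocyte markers 3 were tested and 0 called, and their summed level was 31.0 to 53.3 CPM in 7 livers and 111.7 CPM in HKO replicate 2, one of the livers low for the LSEC genes. Epcam was at 16.5 CPM there and at 0.33 to 1.02 CPM elsewhere, and Krt19, which was not tested, at 16.9 CPM there and at 0.17 to 1.07 CPM elsewhere. Spp1 was at 63.1 CPM there and at 24.0 to 42.5 CPM elsewhere, and Sox9 was at 7.87 CPM there and 4.58 to 15.5 CPM elsewhere. Leukocyte markers (5 of 14 tested, 0 called) summed to 13.1 to 21.4 and 21.4 to 27.9 CPM, with Ptprc, the common leukocyte antigen, at 9.92 to 14.2 and 11.0 to 17.7 CPM, and Itgam at 0.84 to 2.10 and 0.94 to 5.25 CPM. Lymphatic endothelial markers (3 of 6 tested, 0 called), which matter for Lyve1 and Gpr182, were represented by Prox1 (204.5 to 286.8 and 246.2 to 376.5 CPM), which hepatocytes also express, Reln (47.7 to 80.6 and 49.0 to 95.3 CPM), which stellate cells also express, and Flt4, while Pdpn, Mmrn1 and Ccl21a did not pass the expression filter. In HKO replicate 2, Mmrn1 was at 3.71 CPM and Ccl21a at 1.31 CPM, against at most 0.30 and 0.07 CPM in the other livers. The rest of the list did not peak in that liver. Pdpn was at 0.46 CPM there (0 to 1.65 CPM over the 8 livers) and Flt4 at 9.88 CPM (5.59 to 22.7 CPM). Prox1 was at 247.6 CPM and Reln at 49.0 CPM there. Leaving out HKO replicate 2 gave a log2 fold change of -0.30 for Lyve1, 0.54 for Gpr182 and a median of 0.66 for the 10 members. The part of the Kupffer, stellate, biliary, lymphatic and other cell markers in the LSEC values was not tested. Of the platelet markers 1 of 5 was tested (Gp1ba, 2.58 to 2.96 and 2.29 to 3.32 CPM).

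Library totals were 12174339 to 18735785 counts, and the 10 most abundant genes took 17.1% to 21.2% of them. The libraries' order numbers in the labels run consecutively within each genotype, so place in that order and genotype cannot be told apart. The descriptions of all WT libraries begin with the same mouse number, while their titles and column headers give a different number for each. The titles were followed, so the WT libraries were read as coming from separate mice. The genotype label of each library was taken as given, since Mir33 itself was not analysed here.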

How the data were processed

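Liver RNA was sequenced, and per the labels the reads were processed with STAR and Partek. The authors deposited estimated counts per gene (Partek's expectation-maximization method, no normalization). Versions are not given in the sources used here, and since rRNA depletion and a kit for small RNA are both named in the labels, the library type is uncertain. Estimated counts were rounded to whole numbers and analysed in R 4.3.3 with edgeR 4.0.16, TMM scaling, the default expression filter (minimum count 10), robust dispersions and the quasi-likelihood test (legacy = FALSE), adjusted over 12395 genes. SE is the absolute log2 fold change over the square root of F. Log2 CPM adds a prior count of 2. Exonic lengths and 3′UTRs came from GENCODE vM21 on GRCm38. Named genes are the members, up to 4 called or the 2 most abundant tested genes of each list, and the 5 genes most like the members. Of these, 1 gene is not reported here. The members and lists were chosen with earlier results of these data known. Other runs used DESeq2 1.42.0, the voom method of limma 3.58.1, other scalings, no filter, a replicate block and each liver left out. The models were tested on simulated counts. No duplicated library was found. Whether the livers came from separate litters is not stated, and the p-values set the genotype difference against the spread between these livers.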

Additional observations from a re-analysis of the deposited data

Results flagged for a closer look

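Within a genotype, 132 sets of 4 livers were checked for a highest or lowest liver far from the other 3, and 12 were found, where chance gives about 1 in 20 (7 sets). Among the LSEC genes this was Fcgr2b, at 38.6 CPM in WT replicate 3 where the other WT livers had 16.6 to 17.0 CPM. The same liver stood out for Adgrf5 (52.1 CPM against 18.5 to 23.6), for Adgrl4 (29.4 CPM against 5.39 to 9.42) and for the summed pan-endothelial genes (407.6 CPM against 208.1 to 240.0). Adgrf5 and Adgrl4 were chosen because they follow the members over these livers, and Adgrl4 is also in the pan-endothelial sum. These flags are therefore not independent. The sets share livers and some genes, so the number given by chance is only a rough guide.

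In HKO replicate 2 the summed Kupffer cell and macrophage markers were low (86.5 CPM against 249.7 to 279.6), as was Clec4f (18.99 CPM against 52.7 to 57.6). The summed leukocyte markers were low in WT replicate 1 (13.1 CPM against 20.2 to 21.4), and Itgam was high in WT replicate 4 (2.10 CPM against 0.84 to 1.04). The remaining values were Nr2f2 in HKO replicate 1 (81.5 CPM against 95.9 to 97.1), Cxcl12 in WT replicate 1 (394.4 CPM against 338.7 to 344.8), Hyal1 in HKO replicate 4 (50.4 CPM against 64.2 to 66.3) and Ehd1 in HKO replicate 3 (17.0 CPM against 22.5 to 23.3).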

How the results depend on the processing

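Over 16 alternatives, 2 of them chosen after seeing the data (the legacy quasi-likelihood method, and WT replicate 3 together with HKO replicate 1 left out), the number of LSEC genes called was 0 throughout. Leaving out 1 liver at a time, their median log2 fold change ranged from 0.20 to 0.95, the number without overlap from 0 to 3, and the log2 fold change of Stab1 from -0.0080 (without HKO replicate 1) to 0.78. Of the members, 9 kept a log2 fold change above 0 or below 0 under every alternative, Stab1 being the exception. The number of genes called among all tested was 1014 with DESeq2 and 212 to 598 with 1 liver left out, and it was 272 when WT replicate 1 was left out, 212 for WT replicate 2 and 364 for HKO replicate 4. The cause was not tested. With the replicate number as a block it was 456, with 0 LSEC genes called, and Vegfb (adjusted p = 0.0719), Col3a1 (0.0863) and Fgb (0.0623) missed the threshold. Livers with the same number did not deviate together (r = -0.06, 0.01, -0.08 and -0.15), so the numbers were not read as pairs. With 4 livers per genotype and this spread between them, the 95% confidence interval for Kdr runs from a fold of 0.665 to 3.90, and the members' counts lie well above the floor of 3 counts.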
